A study of Mus musculus with 8 samples.

Results

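The surface protein panel of this series is a set of 87 antibody tags counted beside the transcripts of the same cells. Each tag is a DNA barcode on 1 antibody, and its unique molecular identifiers (UMIs) count bound antibody. The members were all features of the deposited matrices that are not gene expression features, which gave 87 of 32372 features, the rest being 32285 genes. The rule uses the feature type and no count. Of the 87 tags, 85 are in the antibody list of the study, and CD90.1 and TLR4 are counted in the files without being in that list. The panel held no isotype control tag, so no background level of unspecific binding could be subtracted.

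The cells were leukocytes of the back of the eye (posterior eye cups), taken from females aged 10 to 12 weeks. WT and Nr4a1-/- mice were each left untreated (control) or treated with laser, which made 4 conditions of 1 library each from pooled eyes. Lists of 4 values below run from WT control and WT laser to the Nr4a1-/- control and then its laser library. Controls pooled 22 mice per library. Laser-treated eyes received 8 burns and were pooled from 11 to 12 mice at day 3. Live CD45+ cells were sorted in all 4 groups. The Nr4a1-/- mice lack the nuclear receptor NR4A1 throughout the body, which leaves them with few non-classical monocytes, and they carry another strain label than the WT mice. Genotype and strain background therefore cannot be told apart. The Nr4a1-/- control library also has another library number than the remaining 3, so batch cannot be told apart from the conditions in any ratio that uses it. The spread between mice is unknown, because no condition has a replicate library.

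Surface proteins of leukocytes are the basis on which immune cells are sorted and named. CD45 is a phosphatase on nearly all leukocytes, integrins and selectins govern adhesion and entry into tissue, MHC class II presents peptides to CD4 T cells, and scavenger, Fc and complement receptors take up debris and opsonized particles. The amount of a protein on the membrane depends on transcription, translation, delivery to the membrane, shedding and uptake from other cells, so that protein and transcript of 1 gene need not follow each other.

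One tag pair reads 2 alleles of the same gene, and its target sequence is shown for that reason. CD90 (Thy1, chr9:44043384-44048579, plus strand, GRCm38) exists in 2 alleles in laboratory mice, and the CD90.1 and CD90.2 antibodies each recognise 1 of them. The alleles differ at a single residue in the mature protein. The GRCm38 reference sequence around that codon, chr9:44046886-44046912 on the plus strand, lies within an exon and within the coding sequence of 489 bases. Capitals mark that codon, in frame with the coding sequence that RefSeq gives.
Thy1: ttttgtgagcttCAAgtctcgggcgcg
The CD90.1 tag had 0 UMIs among 5413979 tag UMIs of the kept cells, which allows up to 3 counts or 0.554 tag CPM (tag UMIs per 1e+06). The CD90.2 tag had 286107 UMIs. The lowest of the other tags, CD215, had 1109. CD90.1 is not in the antibody list of the study, and whether that antibody was added to the cells is not known. Its 0 UMIs therefore measure neither background nor specificity.

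The matrices held 11624 barcodes. After filtering on detected genes (200 to 5000) and on mitochondrial UMIs (15% or less), 3763 and 3791 cells remained in the WT pair, control first, and 2020 and 1649 in the Nr4a1-/- pair. Tag UMIs of the kept cells numbered 1897209, 2039374, 925988 and 551408 in the same order, and the median cell had 284, 325, 247.5 and 132. Nr4a1-/- laser was therefore the shallowest library in tags as well as in RNA. Only 17 barcodes occurred in more than 1 library. No doublet caller was run, and the limit of 5000 detected genes was the only step against doublets.

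A few barcodes held a large part of all tag UMIs. In 43 barcodes 1 tag alone reached 5000 UMIs. The 4 libraries had 5, 20, 6 and 12 of them, which held 13.3%, 15.6%, 29.7% and 39.4% of the tag UMIs of their libraries. Ly-6C led 15 of the 43. The largest was a neutrophil barcode of Nr4a1-/- control with 152482 UMIs of Ly-6G, which made up 99.3% of its tags and 16.5% of the tags of the whole library. A WT control barcode outside all cell gates held 125072 UMIs of CD86, and a WT control NK cell held 53293 UMIs of CD3. Because single barcodes of this kind set the sum of a whole cell group, levels below are given in cells at or below the 99th percentile of tag UMIs in their library. That limit left out 38, 38, 21 and 17 cells, which held 19.6%, 18.9%, 33.1% and 42.7% of the tag UMIs.

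**Figure D1:**
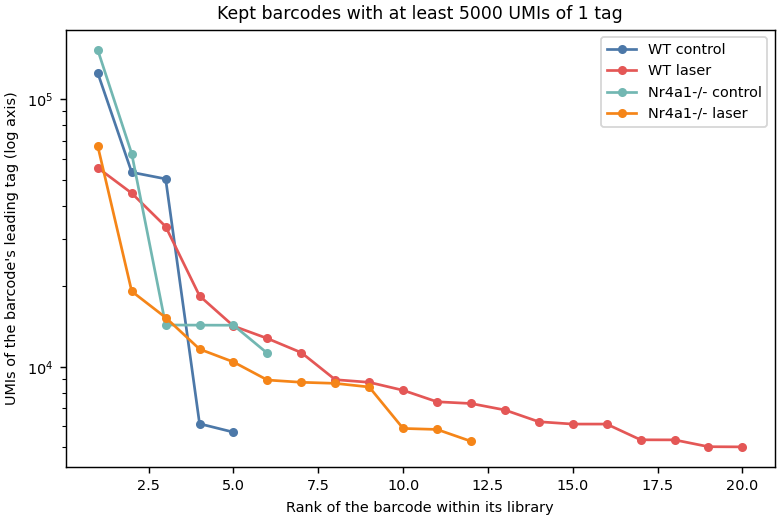
Each point is 1 of the 43 kept barcodes with at least 5000 UMIs of 1 tag, with its rank within its library on the x axis and the UMIs of its leading tag on the y axis (log axis), joined by 1 line per library. The curves start between 55386 and 152482 UMIs, and WT laser has the longest, with 20 barcodes.

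Cells were gated into lineages by RNA alone, so that no tag defined the groups in which tags were compared. A cell entered a gate when it had UMIs of at least 3 of 8 marker genes and at least 2 more markers than of any other lineage. None of the 128 markers of the 16 gates is a target of the panel. The gates took 8272 of 11223 cells (73.7%), of which 344 had exactly 3 markers and 1558 stood exactly at the margin of 2. Of the 2951 cells outside the gates, 1854 had 3 or more markers of some lineage. Gates with at least 10 cells in every library were tested, which were B cells (1919 cells), T cells (1561), microglia (994), NK cells (831), resident macrophages (829), classical monocytes (482), cDC2 (424), neutrophils (420) and cDC1 (139). Spp1 Gpnmb macrophages (3, 62, 5 and 51 cells in the 4 libraries) and non-classical monocytes (220, 147, 8 and 4) fell below that number in at least 1 library and were not tested.

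Tag depth differed between the gates. The median neutrophil had 1024, 634, 537 and 196 tag UMIs in the 4 libraries, and the median microglial cell had 130, 113, 110 and 43. A tag level is therefore given as tag CPM, the UMIs of a tag per 1e+06 tag UMIs of the gate. It is a share, so a tag can fall in it because others rise. Where a gate's direction turns when UMIs per cell are used in its place, this is stated. On that scale the median difference over all tags shifted to 1.03 (log2) in neutrophils, 1.02 in resident macrophages and -1.18 in NK cells, against values between -0.19 and 0.02 in the 9 gates on the share scale in the same cells. Microglia had the lowest median tag depth of the tested gates in every library. Their mean tag CPM was the highest for many tags, among them CD3, CD8a, CD193, CD253, CD279 and FceRIa. The part of depth in this was not tested.

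The panel was dominated by few tags. CD45, MHC class II (I-A/I-E), CD11b and CD90.2 made up 63.2% of the mean tag level over the libraries, and 22 tags, CD90.1 included, were under 1000 tag CPM. CD45 stood at 366787, 248106, 228838 and 134718 tag CPM in the 4 libraries. The other extreme was CD90.1, which stayed at 0. TLR4, the second tag outside the study's list, totalled 12939 UMIs.

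Each tested gate was compared with the mean of the other 8 over 36 sums of raw tag UMIs, with the library as a block (edgeR quasi-likelihood test, Benjamini-Hochberg adjustment within a gate, threshold 0.05). The 4 libraries are 4 conditions. The block takes out differences between libraries that all gates share, and the spread in this test includes those that vary from gate to gate. Of 774 pairs of tag and gate, 112 (14.5%) were higher and 87 (11.2%) lower. With the total tag UMIs of each sum and no further scaling factor, these numbers were 129 and 61. Scaled as in the first test, cells up to the 99th percentile gave 125 higher and 129 lower. Both cell sets shared 98 higher and 83 lower pairs, and these are the calls described here unless a loss is stated. Differences are log2 of a gate over the mean of the other 8, with the standard error (SE) and adjusted p of the sums of all cells. The shared calls covered 62 of the 86 tags tested. Of these tags, 60 were higher in at least 1 gate, and 37 were higher in exactly 1. In the sums of all cells 22 tags were higher in resident macrophages (25.6% of 86), 16 in NK cells (18.6%), 15 in T cells (17.4%), 12 in B cells (14%), 12 in neutrophils (14%), 11 in classical monocytes (12.8%), 9 in cDC1 (10.5%), 8 in cDC2 (9.3%) and 7 in microglia (8.14%). Lower tags numbered 15 in T cells (17.4%), 15 in resident macrophages (17.4%), 14 in NK cells (16.3%), 14 in microglia (16.3%), 9 in neutrophils (10.5%), 6 in B cells (6.98%), 6 in classical monocytes (6.98%), 4 in cDC2 (4.65%) and 4 in cDC1 (4.65%). Of the 181 shared calls, 14 had the opposite sign in UMIs per cell, 6 of them lower calls in neutrophils.

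**Figure D2:**
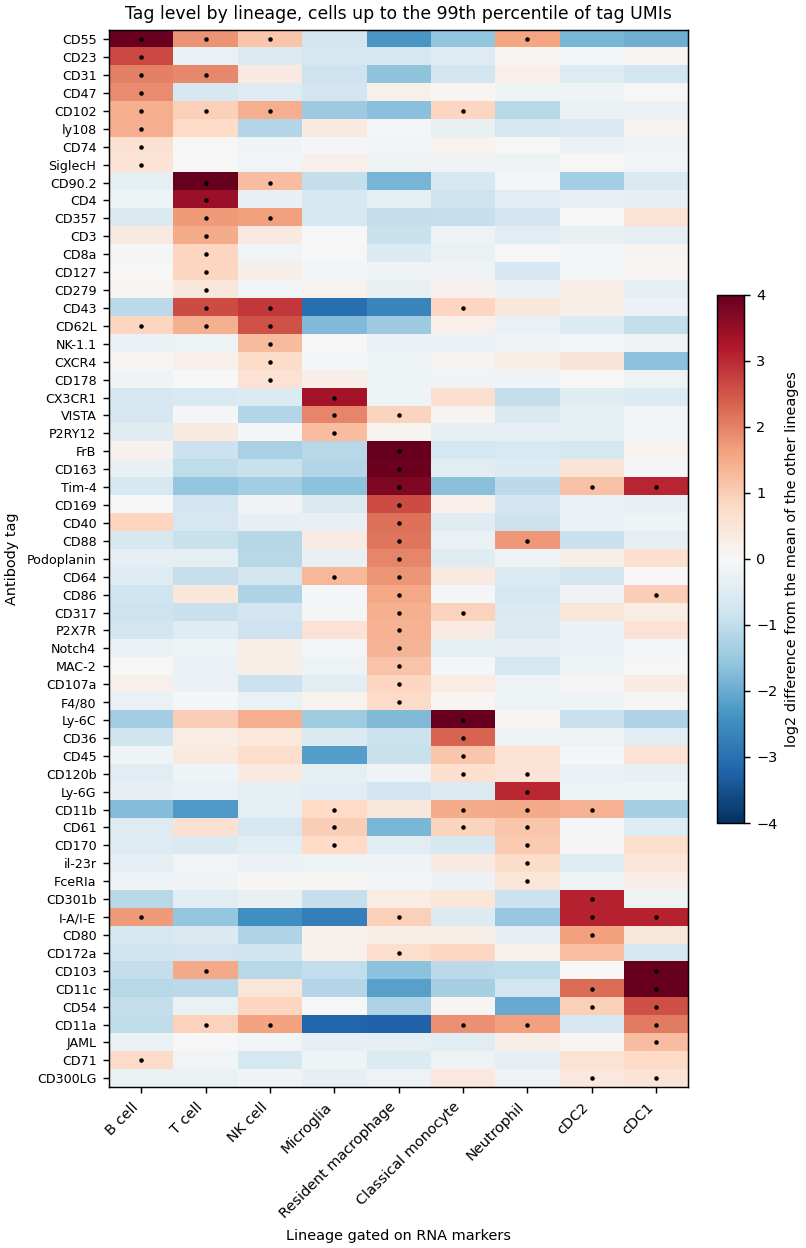
Colour gives the log2 difference of a tag in a gate from the mean of the other gates, in cells up to the 99th percentile of tag UMIs, for tags that were higher in at least 1 gate (red higher, blue lower, and the colour scale ends at 4 in both directions). A dot marks a pair that was called higher in both cell sets. FrB, CD163 and CX3CR1 each have a dot in 1 gate, and CD11a has dots in 5.

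Antigen receptor tags and coreceptors separated the lymphocytes to unequal degrees. CD90.2, a glycoprotein of T cells, reached 244015 tag CPM in control and 376081 in laser WT cells, and 393943 and 384290.0 in the Nr4a1-/- pair for T cells. All 4 values lay above every other gate, where the highest was 109437. The difference from the other gates was log2 4.43 ± 0.24 (SE, edgeR adjusted p = 2.17e-15), and 4.57 in cells up to the 99th percentile. CD4, the coreceptor for MHC class II, gave 14852, 14628, 40399 and 19841 tag CPM in the 4 libraries in the same order, again above all other gates (highest 10586). It was higher in T cells by log2 3.09 ± 0.26 (SE, edgeR adjusted p = 5.31e-11). The tag against CD3, the signalling chains of the T cell receptor, was at 5659, 6384, 6005 and 5692 in T cells and overlapped other gates, which reached 12478. Its difference was log2 1.81 ± 0.63 (SE, edgeR adjusted p = 0.0279), beside 6.95 for Cd3e RNA. Without WT laser it was 0.83 and without Nr4a1-/- control 1.93, and neither passed the threshold. CD8a, the coreceptor for MHC class I, differed by log2 0.73 ± 0.17 (SE, edgeR adjusted p = 0.00112) and also overlapped other gates. In UMIs per cell up to the 99th percentile the CD8a difference was 0.18 and did not pass. The mean CD8a level was 10430 tag CPM in microglia, the highest gate in all 4 libraries, and 6590 in T cells. For CD3 the means were 6709 in microglia and 5935 in T cells.

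The call on CD3 in NK cells was lost without the cells of highest tag totals. In the sums of all cells CD3 was higher in NK cells by log2 4.76 ± 0.82 (SE, edgeR adjusted p = 2.55e-05), beside 1.81 in T cells. In cells up to the 99th percentile the levels were 3201, 3709.9, 3432 and 4953 tag CPM, within the range of the other gates, and the difference was 0.35 and passed no threshold. The WT control NK barcode with 53293 CD3 UMIs is among the cells left out. The same loss was seen for CD204 in NK cells (2.37 to 0.35), TLR4 in T cells (1.84 to -0.17), Ly-6C in neutrophils (3.86 to 0.08), CD301b in classical monocytes (3.79 to 0.49) and tigit in resident macrophages (3.29 to -0.11). In all, 14 higher and 4 lower calls of the full sums were lost this way.

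Within T cells the CD4 tag followed the subset given by RNA. T cells with Cd4 RNA and no Cd8b1 RNA had 34925, 35280.0, 79680.0 and 39827 CD4 tag CPM in the 4 libraries, whereas T cells with Cd8b1 RNA and no Cd4 RNA had 2045, 1506, 4390.4 and 3030.3. The ratio was 17.1, 23.4, 18.1 and 13.1. For the CD8a tag the order was the opposite, with 10586, 7022, 8669 and 11688 in the Cd8b1 cells and 4799, 4132, 3115 and 2276 in the Cd4 cells. That ratio was 2.21, 1.7, 2.78 and 5.14, smaller than the CD4 ratio in each library. The Nr4a1-/- laser library had 34 T cells with Cd4 RNA alone, the fewest of the 4.

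All 5 tags of Fc and complement receptors were higher in at least 1 gate, with 10 pairs in all. CD55, which limits complement on the cell's own surface (Cd55, chr1:130429798-130465009, minus strand), stood at 46639.5 tag CPM in control and 33601 in laser WT cells, and 48524 and 40936 in the Nr4a1-/- pair in B cells. No other gate exceeded 14072. The difference was log2 3.99 ± 0.26 (SE, edgeR adjusted p = 4.83e-13), and Cd55 RNA differed by 6.30. CD23, the low-affinity IgE receptor of B cells, was at 2915, 2706, 2948 and 412, low in Nr4a1-/- laser and overlapping other gates there. It was higher in B cells by log2 2.75 ± 0.32 (SE, edgeR adjusted p = 3.57e-08). CD88, the receptor for the complement fragment C5a, was higher in neutrophils (log2 1.76 ± 0.17 SE, edgeR adjusted p = 1.15e-09) and in resident macrophages (log2 2.24 ± 0.16 SE, edgeR adjusted p = 9.49e-13). Its neutrophil levels were 2675, 20681, 14698 and 14828, lowest in WT control. CD64, the high-affinity IgG receptor of macrophages (Fcgr1, chr3:96282909-96293969, minus strand), was higher in resident macrophages (log2 1.77 ± 0.27 SE, edgeR adjusted p = 2.30e-06) and microglia (log2 1.36 ± 0.28 SE, edgeR adjusted p = 3.64e-04). Its level was 180.3, 16309.6, 18520.0 and 11356 in resident macrophages and 368, 19497, 21690.0 and 11677 in microglia, so that WT control was far below the other 3 libraries in both gates.

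MHC class II was high in dendritic cells. I-A/I-E reached 385948 tag CPM in control and 502160.0 in laser WT cells, and 401831 and 525765 in the Nr4a1-/- pair in cDC2, and 330923, 500918, 307610.0 and 369513 in cDC1. The dendritic cell gates did not overlap the NK cell gate, where the levels were 15831, 30646, 9306 and 25964. Differences were log2 3.09 ± 0.27 (SE, edgeR adjusted p = 2.56e-10) in cDC2, log2 3.09 ± 0.27 (SE, edgeR adjusted p = 1.22e-10) in cDC1 and log2 -2.69 ± 0.42 (SE, edgeR adjusted p = 8.92e-06) in NK cells. H2-Ab1 RNA differed by 4.01, 3.90 and -4.45 in the same gates. CD74, the invariant chain that escorts MHC class II, was higher in B cells by log2 0.69 ± 0.23 (SE, edgeR adjusted p = 0.0283). Its mean level over the libraries was 1318 tag CPM there and 1427 in microglia. A CD74 tag UMI was found in 14.1%, 15.1%, 10.7% and 6.95% of the B cells of the 4 libraries and in 19.3%, 16.4%, 13.9% and 10.4% of the other gated cells, so the share of cells was lower in B cells in all 4. The third MHC tag, mr1, which presents vitamin B metabolites, was called in no gate in both cell sets.

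Of the 14 adhesion and integrin tags, 11 were higher in at least 1 gate, and they gave 31 of the 98 higher calls. CD11b (Itgam), the integrin chain of myeloid cells, was higher in neutrophils (log2 1.54 ± 0.21 SE, edgeR adjusted p = 1.67e-06), classical monocytes (log2 1.42 ± 0.22 SE, edgeR adjusted p = 7.66e-06), cDC2 (log2 1.38 ± 0.21 SE, edgeR adjusted p = 1.52e-05) and microglia (log2 0.87 ± 0.22 SE, edgeR adjusted p = 0.00392). The microglial call was lost without Nr4a1-/- control (0.77) and in UMIs per cell (0.39, and 0.44 up to the 99th percentile). CD11b was lower in T cells (log2 -2.30 ± 0.29 SE, edgeR adjusted p = 2.21e-07) and B cells (log2 -1.67 ± 0.28 SE, edgeR adjusted p = 2.28e-05), and also in cDC1 (log2 -1.32 ± 0.27 SE, edgeR adjusted p = 4.53e-04). Microglia had 313615, 231211, 294962 and 244942 tag CPM and T cells 11306, 18790.0, 9856 and 23744, which do not overlap. CD11a (Itgal), the partner chain in LFA-1, was lower in microglia (log2 -3.09 ± 0.37 SE, edgeR adjusted p = 1.09e-07) and in resident macrophages (log2 -3.22 ± 0.37 SE, edgeR adjusted p = 2.03e-08), also lower in B cells (log2 -0.90 ± 0.30 SE, edgeR adjusted p = 0.0319), and higher in neutrophils, monocytes, T cells, NK cells and cDC1.

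In cDC1 the integrins CD103 and CD11c were the leading tags. CD103 (Itgae, chr11:73090505-73147449, plus strand), which binds E-cadherin, stood at 14224 tag CPM in control and 8637 in laser WT cells, and 98558 and 18065 in the Nr4a1-/- pair. Other gates stayed below 6218, and Nr4a1-/- control was high against the other 3 libraries. Its difference was log2 5.27 ± 0.24 (SE, edgeR adjusted p = 2.39e-17). CD11c (Itgax, chr7:128129526-128150657, plus strand) was at 78349.7, 23740.0, 8029.6 and 40310.5, lowest in Nr4a1-/- control, where it overlapped cDC2 of other libraries. It was higher by log2 6.61 ± 0.31 (SE, edgeR adjusted p = 4.64e-17) in all cells and by 4.91 in cells up to the 99th percentile, against 2.07 for Itgax RNA. cDC2 also had more CD11c (log2 2.02 ± 0.33 SE, edgeR adjusted p = 2.60e-05).

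CD43 (sialophorin, a mucin of leukocytes) was high in lymphocytes and low in tissue macrophages. It was at 144490.0, 139911, 284204 and 225424 in NK cells and 117272, 112217, 176308 and 137475 in T cells, and at 11827, 10495, 10105 and 12627 in microglia and 7784, 7879, 6906 and 11186 in resident macrophages. The NK and T cell gates do not overlap the microglia and resident macrophage gates. The differences were log2 2.69 ± 0.21 (SE, edgeR adjusted p = 1.47e-11), log2 2.45 ± 0.21 (SE, edgeR adjusted p = 5.40e-11) and log2 -2.63 ± 0.32 (SE, edgeR adjusted p = 4.20e-08) in NK cells, T cells and resident macrophages, and microglia were also called lower. CD62L, the selectin for entry into lymph nodes, was above every other gate in NK cells (30501, 19852, 29496 and 43824), with a difference of log2 2.41 ± 0.20 (SE, edgeR adjusted p = 7.54e-11). CD54 (ICAM1, chr9:21015940-21028814, plus strand), the ligand of LFA-1, was higher in cDC1 (log2 2.59 ± 0.29 SE, edgeR adjusted p = 2.27e-08) and lower in neutrophils (log2 -1.77 ± 0.42 SE, edgeR adjusted p = 0.00273). Both differences ran against the RNA, which was -0.88 in cDC1 and 1.33 in neutrophils, each past the threshold. CD31, an adhesion molecule of endothelium and leukocytes, was higher in B cells (log2 2.10 ± 0.22 SE, edgeR adjusted p = 7.48e-09) and overlapped other gates.

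Of the 6 chemokine receptor tags 1 was higher in microglia, and of the 2 purinergic receptor tags 1 was higher there and 1 in resident macrophages. CX3CR1, the fractalkine receptor (Cx3cr1, chr9:120048683-120068296, minus strand), had 75878 tag CPM in control and 94064 in laser WT cells, and 67106 and 81738 in the Nr4a1-/- pair there. No other gate exceeded 7785. The difference was log2 3.38 ± 0.16 (SE, edgeR adjusted p = 9.54e-17), and 2.94 in UMIs per cell. P2RY12, a purinergic receptor of microglia, was at 4723, 24568, 4701 and 9097, high in WT laser. It differed by log2 3.93 ± 0.69 (SE, edgeR adjusted p = 4.12e-05) in all cells and by 1.25 up to the 99th percentile, and a WT laser microglial barcode with 33425 P2RY12 UMIs is among the cells left out. Without the WT laser library the difference was 0.68 and did not pass. P2X7R, an ATP-gated channel, was higher in resident macrophages by log2 1.29 ± 0.22 (SE, edgeR adjusted p = 1.23e-05), beside 4.68 for P2rx7 RNA. The mean P2X7R level was 5602 tag CPM in resident macrophages and 6061 in microglia. The microglial gate was lower in CD45 than the other gates (log2 -2.30 ± 0.31 SE, edgeR adjusted p = 7.88e-07), with 146529, 157390.0, 77729 and 88119.5 tag CPM, beside -0.64 for Ptprc RNA. Only 2 of 6 chemokine receptor tags were higher anywhere in both cell sets. The other was CXCR4 in NK cells, at 1.41 in all cells and 0.72 up to the 99th percentile, which turned to -0.36 in UMIs per cell.

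Scavenger and uptake receptors led the resident macrophages. FrB, the folate receptor beta (Folr2, chr7:101839988-101857190, minus strand), reached 193291 tag CPM in control and 75902 in laser WT cells, and 181633 and 75206 in the Nr4a1-/- pair. Every other gate stayed at or below 7876, and both laser libraries were below both control libraries. The difference was log2 5.78 ± 0.17 (SE, edgeR adjusted p = 1.01e-22), beside 7.76 for Folr2 RNA. CD163, which takes up haemoglobin-haptoglobin complexes (Cd163, chr6:124304636-124330529, plus strand), stood at 150134, 62796, 111992 and 91290.1 without overlap and differed by log2 4.05 ± 0.20 (SE, edgeR adjusted p = 8.57e-17). Tim-4, a phosphatidylserine receptor for apoptotic cells (Timd4, chr11:46810786-46844333, plus strand), was at 13379, 5732, 18118 and 7214 in resident macrophages and 3379, 3505, 5614 and 2538 in cDC1. Both gates were higher than the rest, by log2 3.98 ± 0.29 (SE, edgeR adjusted p = 1.11e-12) and log2 3.07 ± 0.33 (SE, edgeR adjusted p = 8.34e-09). CD40, a TNF family receptor, was higher in resident macrophages by 4.44 in all cells and 2.19 up to the 99th percentile, and its level of 1185, 2286, 1824 and 27758 was set by Nr4a1-/- laser. CD36, a fatty acid and thrombospondin receptor, was higher in classical monocytes (log2 5.24 ± 0.72 SE, edgeR adjusted p = 2.87e-06, and 2.35 up to the 99th percentile) while Cd36 RNA differed by 0.48, which did not pass.

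All 6 lectin and Siglec tags were higher in at least 1 gate. CD169 (Siglec1, chr2:131067801-131086778, minus strand), a sialic acid receptor of macrophages, was at 4688, 5309, 7631 and 7530.3 tag CPM in resident macrophages and differed by log2 2.53 ± 0.19 (SE, edgeR adjusted p = 2.69e-12). CD170 (Siglec-F, encoded by Siglecf, chr7:43351341-43359475, plus strand), known from eosinophils, was higher in neutrophils (log2 1.17 ± 0.25 SE, edgeR adjusted p = 7.12e-04) and microglia (log2 0.81 ± 0.25 SE, edgeR adjusted p = 0.0162). The neutrophil call was lost without WT laser (0.65) and the microglial call without WT control (0.74). In UMIs per cell up to the 99th percentile the microglial difference was 0.43 and did not pass. CD301b, a galactose lectin of cDC2, was at 8891, 3852, 7960.4 and 9618 there, overlapping the 5036 of classical monocytes and 4021 of resident macrophages in Nr4a1-/- laser, and differed by log2 2.67 ± 0.48 (SE, edgeR adjusted p = 1.19e-04). NK-1.1 (Klrb1c), the lectin-like receptor by which NK cells are usually sorted, was at 3374, 3039, 6307 and 5103 in NK cells and overlapped other gates. Its difference was log2 1.07 ± 0.28 (SE, edgeR adjusted p = 0.00417) against 9.23 for Klrb1c RNA, and in UMIs per cell it was 0.08 up to the 99th percentile and -0.09 in all cells. Without Nr4a1-/- control it was 0.77 and did not pass.

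The Ly-6 proteins of myeloid cells marked their lineages. Ly-6G (Ly6g, chr15:75155261-75159128, plus strand), a surface protein of neutrophils, was at 27687 tag CPM in control and 33298 in laser WT cells, and 62391 and 26012 in the Nr4a1-/- pair in neutrophils, and no other gate exceeded 12585. The difference was log2 6.23 ± 0.54 (SE, edgeR adjusted p = 3.75e-10) in all cells and 3.01 up to the 99th percentile. Ly6g RNA was too low to be tested. Ly-6C was at 24700.0, 59898, 27956 and 52247 in classical monocytes, overlapped only where laser NK cells reached 41954, and differed by log2 5.65 ± 0.89 (SE, edgeR adjusted p = 1.27e-05) and 4.16. The antibody reads the products of Ly6c1 and Ly6c2, near-identical genes whose RNA counts cannot be fully separated. CD45 was higher in classical monocytes (log2 0.92 ± 0.23 SE, edgeR adjusted p = 0.00459), with 538573, 390781, 412840.0 and 242100.0 tag CPM, and without WT control the difference was 0.73 and did not pass. Among checkpoint tags, VISTA was higher in microglia (log2 1.73 ± 0.33 SE, edgeR adjusted p = 1.39e-04) and resident macrophages (log2 2.55 ± 0.35 SE, edgeR adjusted p = 6.01e-07). Up to the 99th percentile its mean level was 44942 tag CPM in microglia, the highest gate in all 4 libraries, and 11432 in resident macrophages. A WT laser resident macrophage barcode with 14203 VISTA UMIs is among the cells left out. CD80, a costimulatory ligand of T cells, was higher in cDC2 (log2 1.68 ± 0.26 SE, edgeR adjusted p = 1.52e-05). Its mean level was 2089 tag CPM there and 2333 in microglia, the highest gate in 3 of the 4 libraries. CD47, which restrains phagocytosis, was higher in B cells (log2 1.98 ± 0.43 SE, edgeR adjusted p = 8.97e-04). The CD47 call rests on Nr4a1-/- control, where B cells had 9453 tag CPM against 563, 810.0 and 1194 in the other libraries. In Nr4a1-/- control 1 barcode held 977 of the 1251 CD47 UMIs of the kept cells. Without that library the difference was -0.000837.

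The other 24 tested tags were called in no gate in both cell sets. Among them were CCR2, CD14, CD115 and CD68, proteins of monocytes and macrophages, the Notch proteins DLL1 and Notch1, and the plasma cell protein CD138. By role, 7 of 10 checkpoint and costimulation tags were higher somewhere, 6 of 14 cytokine and TNF family tags, 5 of 8 pattern, scavenger and uptake receptors, and 1 of 4 Notch tags, which was Notch4 in resident macrophages. Resident macrophages were the highest gate for Notch4 in only 1 of the 4 libraries. Notch4 stood at 804, 855, 1064 and 5001 tag CPM in the 4 libraries. In Nr4a1-/- laser 1 barcode held 1032 of its 1597 UMIs.

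Next, each tag was set beside the RNA of its gene. The 87 tags have 91 target genes, and 80 of these had enough UMIs to be tested. Of their pairs with a gate, 257 of 720 were higher (35.7%) and 211 lower (29.3%), beside 27.7% and 20.9% over all 11691 genes tested. Gate by gate, the share of all genes higher was 32% in B cells, 31.7% in T cells, 25.2% in NK cells, 35% in microglia, 32.1% in resident macrophages, 26.2% in classical monocytes, 22.6% in neutrophils, 25.5% in cDC2 and 19% in cDC1. The share lower was 25.3%, 24.5%, 22.5%, 24.9%, 19.9%, 16.3%, 19%, 15.4% and 20% in the same gates. Of 94 higher tag calls with RNA tested, the RNA was also higher in 84 (89.4%), lower in 3 and not called in 7. Of 81 lower tag calls, the RNA was lower in 48 (59.3%), higher in 3 and not called in 30. The 3 with higher tag and lower RNA were CD47 and SiglecH in B cells and CD54 in cDC1. The 3 with lower tag and higher RNA were CD54 in neutrophils and CD61 and CD71 in NK cells. These 6 were named after their values were seen. As given above, the CD47 call in B cells rests on Nr4a1-/- control. Mean SiglecH was 10322 tag CPM in B cells and 13402 in microglia. In Nr4a1-/- control 1 barcode held 1330 of 4633 SiglecH UMIs, and its part in the B cell call was not tested. Over 671 pairs the log2 differences of tag and RNA had a Pearson r of 0.59 and a Spearman rho of 0.56, a description over pairs that share gates and libraries.

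**Figure D3:**
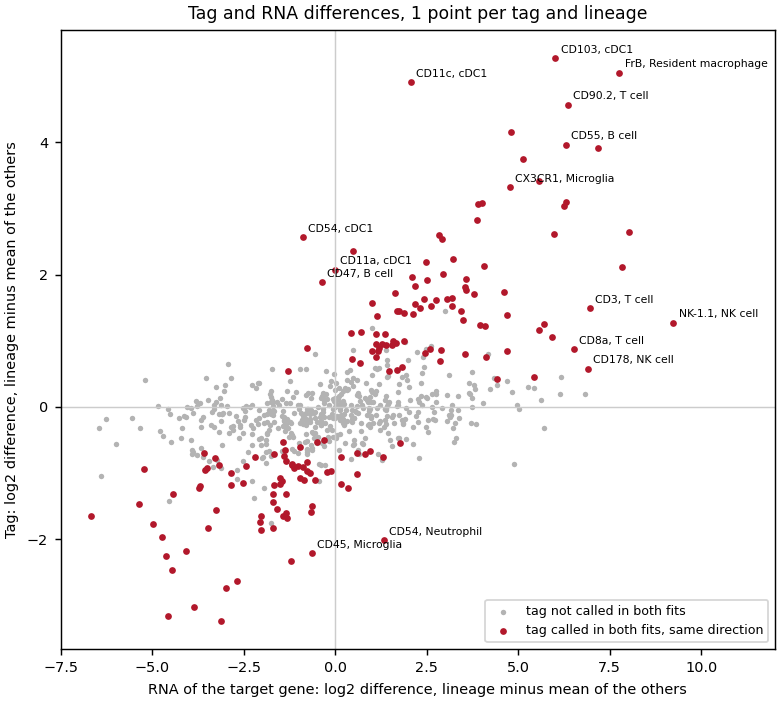
Each point is 1 pair of tag and gate, with the log2 difference of the RNA of the target gene from the other gates on the x axis and that of the tag, in cells up to the 99th percentile, on the y axis. Red points are pairs whose tag was called in the same direction in both cell sets, and grey points the rest. RNA differences span a wider range than tag differences, as for NK-1.1 in NK cells with 9.23 for RNA and 1.27 for the tag.

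Across the 9 gates the order of tag and RNA levels was compared for 76 tags. The median Spearman rho was 0.57, with 66 tags above 0, 29 at 0.7 or more and 9 below 0. The highest values were I-A/I-E (0.98), CD43 (0.97), CD11b (0.93), CD172a (0.93) and CD11a and CD90.2 (0.92 each). The lowest were CD47 (-0.67), CD36 (-0.48), MAC-2 (-0.35), CCR2 (-0.30) and CD34 (-0.25). For CD47, B cells had the highest mean level but were the highest gate in only 1 of the 4 libraries. CCR2, the chemokine receptor of classical monocytes, had its highest mean in microglia, at 1265 tag CPM, followed by resident macrophages at 874. The highest mean of I-A/I-E was 453926, in cDC2. The rho moved with the level of the tag, being 0.70 in the median of 43 tags that reached 5000 tag CPM in a gate and 0.33 in the median of the 33 that did not. Whether tag level sets this difference was not tested. With all cells in the sums the median rho was 0.46.

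Chains that pair with a panel protein but have no tag were described from RNA. Over 6 such genes and 54 pairs with a gate, 23 were higher and 15 lower, beside 27.7% higher and 20.9% lower over all genes tested. Itgb2, the beta chain of CD11a, CD11b and CD11c, was higher in neutrophils by 1.37 ± 0.16 (SE) and in classical monocytes by 1.09 ± 0.16 (SE), and lower in B cells by -2.37 ± 0.21 (SE). Itgb7, the beta chain of CD103, was higher in cDC1 by 2.16 ± 0.19 (SE) and lower in microglia by -4.83 ± 0.35 (SE). Cd8b1, the beta chain beside CD8a, was higher in T cells by 7.84 ± 0.25 (SE).

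Cell by cell, a tag and its RNA were compared by how well each ranked the cells of a gate above all other gated cells. The measure was the area under the receiver operating curve (AUC), where 0.5 is no separation and 1 is complete separation. It was computed on raw UMIs per cell in each library, and genes and tags differ in depth, which bears on it. Of the 98 higher pairs, the tag separated better than the RNA in all 4 libraries for 45 and worse in all 4 for 26. These pairs were chosen by the calls of their tags in the same data, with no call asked of the RNA. The counts therefore cannot rank tags against RNA in general. A tag AUC of at least 0.9 in every library was reached by CD90.2 in T cells (0.965 to 0.987), Ly-6G in neutrophils (0.964 to 0.996), FrB in resident macrophages (0.925 to 0.957), CD54 in cDC1 (0.923 to 0.973) and CX3CR1 in microglia (0.907 to 0.96). Thy1 RNA gave 0.68 to 0.793 in T cells and Icam1 RNA 0.457 to 0.569 in cDC1. The reverse was seen for CD3 in T cells (tag 0.557 to 0.717, RNA 0.967 to 0.984), NK-1.1 in NK cells (tag 0.511 to 0.596, RNA 0.889 to 0.97) and P2RY12 in microglia (tag 0.49 to 0.584, RNA 0.855 to 0.971). For these 3 pairs the lowest RNA value lay above the highest tag value.

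Within 1 gate, cells with at least 1 UMI of the target RNA were compared with cells of the same gate and library that had none. This was possible for 169 pairs of 61 tags. The tag CPM was higher in the cells with RNA in all 4 libraries for 58 pairs and lower in all 4 for 11, and the median ratio was 1.16. In UMIs per cell 94 pairs were higher in all 4, and cells with more RNA UMIs of any kind are more likely to hold 1 of the target, so depth moves with this split. In 19 pairs the ratio was at least 1.5 in every library. The highest was I-A/I-E in resident macrophages, 13.2-fold in the median library (10.2 to 20.1 over the 4 libraries). CD301b in cDC2 gave 9.58-fold in the median library (7.01 to 17.2 over the 4 libraries) and CD163 in cDC2 5.03-fold in the median library (4.29 to 7.98 over the 4 libraries). In T cells Ly-6C gave 9.35-fold in the median library (3.79 to 18.4 over the 4 libraries), CD103 6.74-fold in the median library (3.88 to 13.4 over the 4 libraries), CD62L 3.86-fold in the median library (3.16 to 6.52 over the 4 libraries) and CD4 3.66-fold in the median library (2.77 to 4.38 over the 4 libraries). For CD8a, in contrast, the ratio was 1.61-fold in the median library (1.22 to 2.09 over the 4 libraries).

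Conditions were compared as ratios of tag CPM between libraries, each with an exact conditional binomial 95% interval. These intervals cover counting error only, and no p-value was computed. Before any single gate is described, tags that moved in all gates at once need to be set apart. In the WT pair, 8 of 57 tags measured in all 9 gates were at least 2-fold higher after laser in every gate (14%), namely CD64, CD86, CD88, CD106, CD107a, CD317, CD357 and MAC-2, and 2 were lower in every gate (3.51%), DLL1 and F4/80. Of 3354 RNA features measured in the same way, 0 were higher in all 9 gates and 1 lower (0.0298%). In Nr4a1-/- 2 of 36 tags were higher in every gate (5.56%), CD11c and CD357, and VISTA was lower (2.78%). Between the control libraries 6 of 48 were higher in Nr4a1-/- in every gate (12.5%), CD4, CD64, CD103, CD106, CD193 and CD317, and CD11c was lower (2.08%). Between the laser libraries 0 of 53 moved in every gate in either direction. In these 3 comparisons 0 RNA features were higher in every gate, and 0 of 1519, 2 of 2510 (0.0797%) and 1 of 3086 (0.0324%) were lower.

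CD64 showed this most plainly. Over all cells it stood at 137, 6089, 5919 and 4488 tag CPM in the 4 libraries. Its ratio of laser to control in WT ran from 12.8 to 389.6 over the 9 gates, B cells and T cells included, with a median of 23.7, whereas Fcgr1 RNA had a median of 2.82 over the 6 gates where it could be measured. CD106 (VCAM1) stood at 64.2, 1304, 4434 and 1881, with a median ratio of 19.8 for laser in WT and of 69.5 between the control libraries (24.5 to 238). CD11c stood at 5043, 4511, 528 and 7075, so that Nr4a1-/- control alone was low. Its median ratio was 0.0964 for Nr4a1-/- over WT control and 13.1 for laser in Nr4a1-/-. For CD64 and CD106 WT control stood apart from the other 3 libraries, and for CD11c Nr4a1-/- control did.

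Other tags moved the same way in both genotypes. CD107a (LAMP1), a lysosomal membrane protein that reaches the surface on degranulation, was higher after laser by a median of 22.9 in WT (14.3 to 83.9 over 9 gates) and 4.72 in Nr4a1-/- (4.03 to 13.6 over 7 gates), while Lamp1 RNA had medians of 1.14 and 1.03. CD357 (GITR), a TNF receptor of regulatory T cells, was higher by 2.84 and 3.78. F4/80 (Adgre1), a macrophage receptor, was at 0.312 and 0.389 of its control level, beside 1.2 and 1.01 for Adgre1 RNA. CD23 was at 0.171 (8 gates) and 0.139 (7 gates). Laser libraries pooled fewer mice and, within each genotype, held a larger share of their tag UMIs in single-tag barcodes than the control library, and whether either sets these shifts was not tested.

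**Figure D4:**
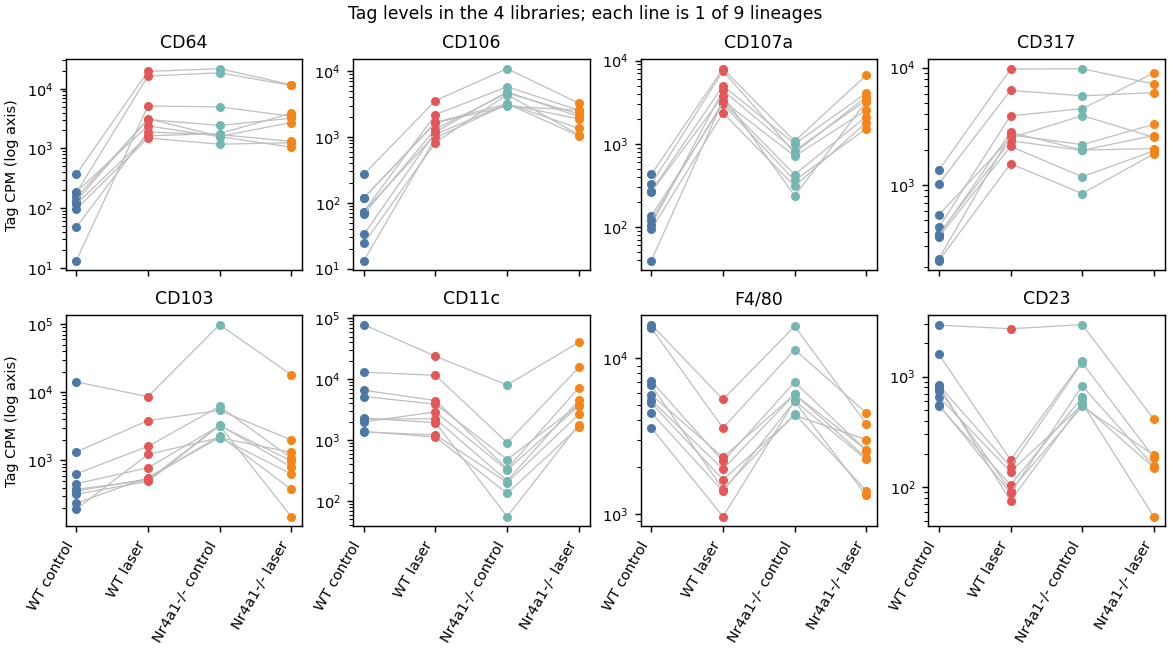
Tag CPM (log axis) of 8 tags in the 4 libraries, in cells up to the 99th percentile, where each point is 1 of the 9 gates, a line joins the points of a gate, and levels of 0 are not drawn. CD64 and CD106 are low in WT control in all gates, and CD11c is low in Nr4a1-/- control.

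At least 2-fold changes in the same direction in both genotypes, with intervals excluding 1, were seen after laser in 41 pairs higher (6.37% of 644) and 27 lower (4.19%) in all cells, and in UMIs per cell in 23 and 61. In cells up to the 99th percentile they were 65 higher (10.1% of 641) and 23 lower (3.59%). After division by each tag's median ratio over the gates, 9 pairs were at least 2-fold higher and 5 lower in both genotypes.

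CD54 in neutrophils was among these. It stood at 3655 tag CPM in control and 17278 in laser WT cells, and 3362 and 40037 in the Nr4a1-/- pair, both laser libraries above both control libraries. The ratio was 4.73 (95% interval 4.29 to 5.22) in WT and 11.9 (95% interval 9.98 to 14.3) in Nr4a1-/-, and Icam1 RNA gave 2.63 and 2.94. CD170 in neutrophils was at 2205, 11096, 2672 and 9453 in the same order, again without overlap. Its ratios were 5.03 (95% interval 4.44 to 5.71) and 3.54 (95% interval 2.77 to 4.52), and Siglecf RNA was higher 14 times over control in WT. Summed neutrophil marker RNA of this gate was 101843, 64738, 94444 and 32106 CPM, lower in both laser libraries, and summed cDC2 marker RNA in the neutrophil gate was 104.9, 174.8, 119.7 and 258.3 CPM, higher in both. Summed microglia marker RNA in the neutrophil gate was 40.7, 268.3, 38.8 and 387.5 CPM, also higher in both, and that of Spp1 Gpnmb macrophages 208.3, 464.2, 145.6 and 303.6 CPM. Microglia had the highest mean level of CD170 among the gates and the second highest of CD54. The part of these markers in the tags was not tested.

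FrB moved the other way. In resident macrophages its ratio of laser to control was 0.393 (95% interval 0.385 to 0.401) in WT and 0.414 (95% interval 0.398 to 0.431) in Nr4a1-/-, while Folr2 RNA gave 1.07 and 1.35. The tag was below 1 and its RNA above 1 in both genotypes. In the same gate the summed RNA of Spp1 Gpnmb macrophage markers was 207, 734, 158.7 and 1829 CPM, and its part in FrB was not tested. In cDC2 CD163 was at 14303, 4762, 8557 and 5678, with ratios of 0.333 (95% interval 0.296 to 0.375) and 0.664 (95% interval 0.541 to 0.811), and Cd163 RNA gave 0.317 and 0.319. CD11a also had ratios below 1 in cDC2 (0.369 and 0.217) and in cDC1 (0.282 and 0.406). Its median ratio over 9 gates was itself below 1, at 0.668 in WT and 0.69 in Nr4a1-/-. Relative to these medians CD11a stood at 0.552 and 0.315 in cDC2 and at 0.422 and 0.588 in cDC1. Itgal RNA gave 0.364 and 0.449 in cDC2 and 0.841 and 0.829 in cDC1. Tim-4 in cDC2 had ratios of 2.6 (95% interval 1.62 to 4.38) and 14.8 (95% interval 7.18 to 35.3) from 20, 142, 8 and 87 UMIs, and Timd4 RNA gave 2.41 and 2.97. The RNA of basophil and mast cell markers in the cDC2 gate was 197.8, 1619, 183.8 and 2656 CPM, higher in both laser libraries, and that of neutrophil markers was 266.8, 708.2, 223.9 and 1080.1 CPM, also higher in both. In the cDC1 gate the summed RNA of cDC1 markers was 3712, 2455, 3724 and 2829 CPM, lower in both laser libraries, and that of classical monocyte markers 203.7, 603.3, 218.4 and 418.4 CPM, higher in both. The part of these markers in the tags was not tested.

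Ly-6C was higher after laser in many gates. Its ratio was above 2 in 8 of 9 gates in WT, with a median of 2.56, and in 4 of 8 in Nr4a1-/-, with a median of 2.92. Resident macrophages gave 5.28 and 5.58 and microglia 3.09 and 6.57. In T cells it was at 2436, 14291, 1197 and 11059 tag CPM, with ratios of 5.87 (95% interval 5.3 to 6.51) and 9.24 (95% interval 7.37 to 11.6), and the summed RNA of Ly6c1 and Ly6c2 gave 1.2 and 1.1. In all cells the Nr4a1-/- ratio turned to 0.862. In NK cells it was at 2761, 41954, 1948 and 7654, with ratios of 15.2 (95% interval 13.2 to 17.6) and 3.93 (95% interval 2.66 to 5.78), beside 0.634 and 1.04 for the summed RNA. Relative to the median of the tag over the gates, the ratios were 2.29 and 3.16 in T cells and 5.93 and 1.34 in NK cells. Summed classical monocyte marker RNA, from the gate highest in Ly-6C, was 63.8, 199.4, 40.1 and 79.7 CPM in the NK cell gate, higher in both laser libraries, and 142.9, 169.3, 103.5 and 93.2 CPM in the T cell gate. Ly-6C also led 15 of the 43 single-tag barcodes. The part of these markers and barcodes in its level on lymphocytes was not tested.

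**Figure D5:**
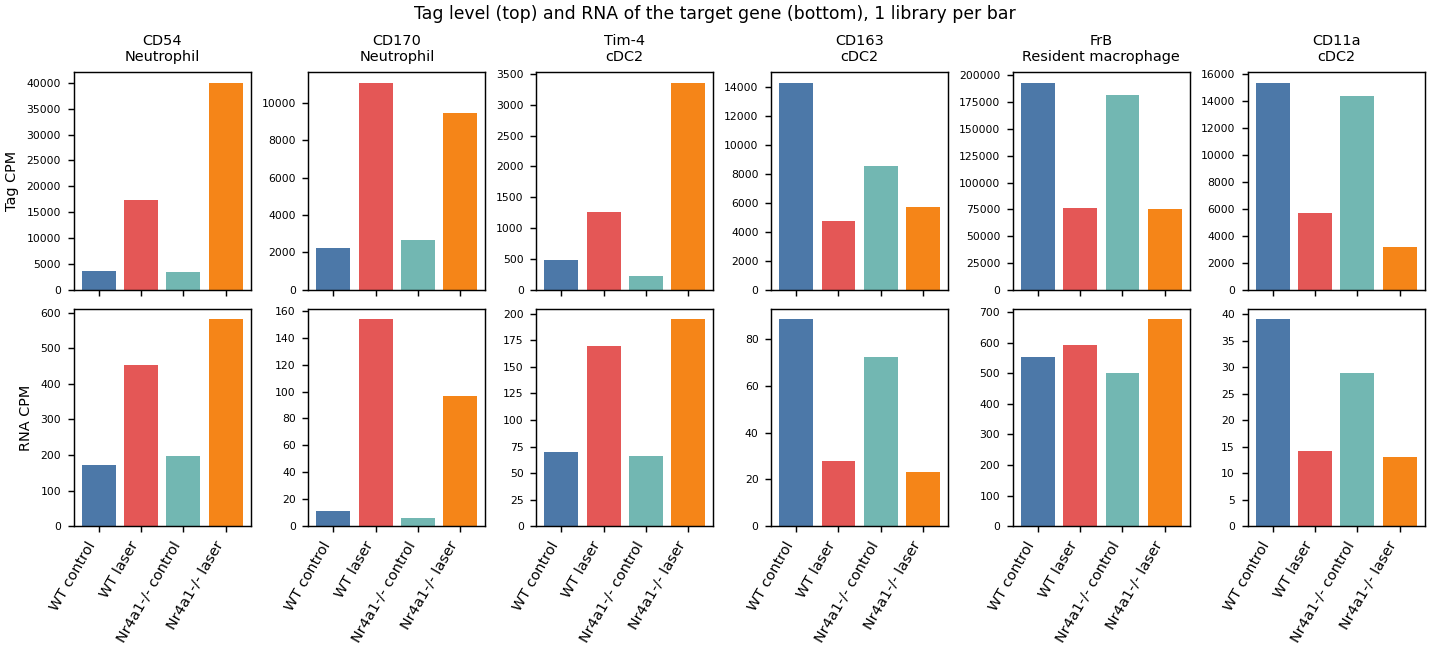
Bars give the tag CPM (top) and the RNA CPM of the target gene (bottom) in 1 named gate for each of the 4 libraries, on linear axes that start at 0 and differ between panels. There are no error bars, because each bar is 1 library. FrB in resident macrophages is lower in both laser libraries while Folr2 RNA is not, and CD54 in neutrophils is higher in both.

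Between the genotypes, control and laser pairs were set side by side. In all cells 6 pairs of tag and gate were at least 2-fold higher in Nr4a1-/- in control and laser alike (0.857% of 700) and 5 lower (0.714%), and up to the 99th percentile 11 (1.59% of 694) and 1 (0.144%). After division by each tag's median ratio over the gates, 2 pairs were at least 2-fold higher and 4 lower in both comparisons. CD54 was higher in Nr4a1-/- classical monocytes, at 10734, 25401, 29412 and 130681 tag CPM, with ratios of 2.74 (95% interval 2.51 to 2.99) in control and 5.14 (95% interval 4.83 to 5.48) after laser, and Icam1 RNA gave 1.67 and 0.563. In all cells the laser ratio was 0.970, so that the call after laser rests on leaving out cells above the 99th percentile. The summed RNA of Spp1 Gpnmb macrophage markers in the classical monocyte gate was 261.8, 504, 335 and 1222 CPM, and its part was not tested. In NK cells CD54 gave 2.07 (95% interval 1.96 to 2.18) and 2.08 (95% interval 1.91 to 2.26), and Icam1 RNA 1.35 and 0.553. The median ratio of CD54 over all 9 gates was 1.44 in control and 2.08 after laser, so that NK cells stood at the median after laser. CD36 in classical monocytes had ratios of 2.4 (95% interval 1.91 to 3.02) and 3.4 (95% interval 2.88 to 4.01), while Cd36 RNA gave 0.308 and 0.627. In all cells its ratios were 2.24 and 21.1, and its medians over 8 gates were 1.2 and 2.66. CD31 in resident macrophages had ratios of 3.39 (95% interval 2.36 to 4.9) and 2.17 (95% interval 1.68 to 2.78), beside medians of 2.57 over 8 gates and 1.25 over 9, and Pecam1 RNA gave 1.21 and 1.52. CD74 in B cells gave 2.69 (95% interval 2.15 to 3.38) and 2.34 (95% interval 1.64 to 3.31), and NK-1.1 in NK cells 1.87 (95% interval 1.55 to 2.26) and 1.68 (95% interval 1.12 to 2.45). Cd74 RNA gave 1.16 and 1.06, and Klrb1c RNA 0.966 and 1.05. The median ratio over the gates was 0.942 (7 gates) and 1.34 (8 gates) for CD74, and 1.23 and 1.52 over 9 gates for NK-1.1. The share of B cells with a CD74 UMI, given above, was lower in both Nr4a1-/- libraries than in both WT libraries. In Nr4a1-/- control 1 barcode held 105 of the 504 CD74 UMIs of the kept cells, and its part in the B cell ratio was not tested.

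CD45 was lower in Nr4a1-/-. In T cells it stood at 383238, 237106, 184976 and 127338 tag CPM, with ratios of 0.483 (95% interval 0.475 to 0.49) in control and 0.537 (95% interval 0.515 to 0.56) after laser, and Ptprc RNA gave 0.969 and 1.1. In B cells the ratios were 0.655 (95% interval 0.647 to 0.664) and 0.505 (95% interval 0.487 to 0.523), and the second turned to 1.52 in all cells. The ratio was below 1 in all 9 gates in both comparisons, with medians of 0.697 and 0.56. Since tag CPM is a share and CD45 is its largest member, a lower share of CD45 leaves a higher share to the other tags of a gate. In UMIs per cell 94 pairs were at least 2-fold lower and 1 higher in Nr4a1-/- in both comparisons, beside the lower tag depth of both Nr4a1-/- libraries.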

How the data were processed

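Cells were profiled by droplet sequencing of RNA and antibody tags. The authors deposited raw UMI counts per barcode, made with Cell Ranger 7.0.1 on mm10, with genes and tags in the same matrix. Barcodes were filtered here on detected genes (200 to 5000) and mitochondrial UMIs (15% or less). The labels of treatment and genotype in the tag records differ from the sample titles, and libraries were grouped by title. Tag UMIs were summed per gate and library without subtraction of background. Median depth was 132 to 325 tag UMIs per cell. Tags and genes with at least 10 UMIs in at least 4 sums were tested with edgeR 4.0.16 (TMM, quasi-likelihood, library as a block, 24 residual degrees of freedom, Benjamini-Hochberg adjustment within a gate) in R 4.3.3, and with DESeq2 1.42.0 as an alternative. On simulated sums for 86 tags, 5 of 5 4-fold increases and 0 of 5 2-fold increases were recovered. Of 105219 pairs of gene and gate, 855 gave no usable test and were not called. Ratios between libraries carry exact conditional binomial intervals from scipy 1.17.1, for at least 20 UMIs in the higher library, and cover counting error only. Sequence and gene positions came from RefSeq on GRCm38.

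The members and gene lists were chosen with earlier results of these data known. Tags named per gate were up to 4 higher and 2 lower with the largest difference, the proteins that the study gated, the 5 highest and 5 lowest correlations with RNA and, between conditions, up to 3 tags per direction and gate with at least 1.5-fold change in both pairs. Other tags named were chosen after their values were seen. No replicate libraries, isotype control tags or doublet calls entered the analysis. 1 tag of the panel entered all counts and tests but is not reported here by name.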

Additional observations from a re-analysis of the deposited data

Results flagged for a closer look

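Gates that entered no comparison held tags at high levels. In the gate of retinal pigment epithelium markers, 39 cells in all, Podoplanin had a mean over the libraries of 709381 tag CPM. In the gate of basophil or mast cell markers, 35 cells in all, FceRIa, the high-affinity IgE receptor chain, reached 113948 and CD200r3 9115 tag CPM. These gates were too small to be tested.

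CD106 (VCAM1) moved in opposite directions after laser in the genotypes. Its ratio of laser to control was above 1 in all 9 gates in WT, with a median of 19.8 and a range of 13.2 to 73.5, and below 1 in all 9 gates in Nr4a1-/-, at 0.245 to 0.869. The difference between the genotypes was not tested. The gates share the same 4 libraries, and over all cells CD106 stood at 64.2 tag CPM in WT control against 1304, 4434 and 1881 in WT laser and the Nr4a1-/- control and laser libraries.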

How the results depend on the processing

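With 1 library per condition, no ratio between conditions has a replicate check. No paired analysis was possible because each group holds 1 library. Tag depth limits low tags, most in Nr4a1-/- laser. The 112 higher and 87 lower pairs became 129 and 61 with total tag UMIs and no further scaling factor. They were 122 and 120 with DESeq2, and 125 and 129 without cells above the 99th percentile of tag UMIs. With the number of cells as library size they were 184 and 172, and 208 and 230 when cells above the 99th percentile were also left out. Leaving out each library in turn gave 94 to 111 higher and 64 to 87 lower pairs, and 103 to 117 and 98 to 129 without cells above the 99th percentile. Target gene RNA gave 233 to 251 higher and 162 to 190 lower pairs when each library was left out.

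Pairs at least 2-fold higher after laser numbered 41, and 65 without cells above the 99th percentile, 63 without barcodes of 5000 UMIs of 1 tag, 23 in UMIs per cell and 18 with both changes. Lower pairs were 27, and 61 and 56 in UMIs per cell. For Nr4a1-/- over WT, 6 higher pairs became 11 without cells above the 99th percentile, 11 without the single-tag barcodes, 1 in UMIs per cell and 0 with both changes, and 5 lower pairs became 1, 1, 94 and 80. The median rho of tag and RNA was 0.57, 0.46 in all cells, and 0.542 to 0.617 when each library was left out. Pairs with a higher tag level beside RNA were 58, and 94 in UMIs per cell.

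Leaving out each library gave -0.000837 to 2.44 for CD47 in B cells, the lowest without Nr4a1-/- control, which was -0.00276 when cells above the 99th percentile were also left out. TLR4 in T cells was at -0.167 (without Nr4a1-/- control) to 2.44 when each library was left out, -0.173 without cells above the 99th percentile, -0.876 in UMIs per cell of those cells, and -0.337 to -0.133 when each library was also left out (-0.155, -0.224). CD3 and CD204 in NK cells were at -0.833 and -0.758 in UMIs per cell up to the 99th percentile, and NK-1.1 in NK cells at -0.0871 in UMIs per cell. Ly-6C in neutrophils was at -0.0935 without WT control and -0.105 without Nr4a1-/- control, up to the 99th percentile. With all cells, the ratio of Ly-6C in T cells after laser in Nr4a1-/- was 0.862, and Nr4a1-/- over WT after laser was 1.52 for CD45 in B cells and 0.970 for CD54 in classical monocytes. The cause of these changes was not tested. The settings that join 2 changes and the removal of single-tag barcodes were chosen after seeing the data.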

Other observations

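Small gates are given as levels only, with the WT pair before the Nr4a1-/- pair and control before laser. The gate of retinal pigment epithelium markers held 13, 7, 17 and 2 cells, and the basophil or mast cell gate 12, 13, 8 and 2. Plasmacytoid dendritic cells numbered 2, 8, 4 and 5, and migratory dendritic cells 5, 32, 4 and 8. With so few cells, differences between libraries are not read as differences between conditions. Podoplanin, a mucin-type glycoprotein, stood at 668786, 891318, 677419 and 600000.0 tag CPM in the gate of retinal pigment epithelium markers. FceRIa stood at 130085, 91007, 81232 and 153465 in the basophil or mast cell gate. In plasmacytoid dendritic cells CD317, an interferon-induced protein known as BST2, stood at 7491, 54738, 88548 and 32258. Migratory dendritic cells had 749578, 806322, 410184 and 688388 of I-A/I-E. Non-classical monocytes of WT control and WT laser had 136204 and 152463 of CD43 and 143578 and 134160 of CD11b. Spp1 Gpnmb macrophages had 213591 of CD11b in WT laser and 232714 in Nr4a1-/- laser, and 167086 and 248595 of I-A/I-E.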
